A study of Mus musculus with 27 samples.

Results

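The 37 transcripts described here are those of the mouse mitochondrial genome: 13 mRNAs, 2 rRNAs and 22 tRNAs, out of 137271 transcripts listed in each of 4 RNA libraries. They were taken by transcript identifier, as the run ENSMUST00000082387 to ENSMUST00000082423 together with ENSMUST00000084013. Of the 38 identifiers so defined, 37 were listed in the libraries. The libraries hold polyadenylated RNA of KH2 mouse embryonic stem cells, a line built for doxycycline-inducible transgenes, with the genotype given as KH2:13 Flag-BAP-H3 tags, meaning that histone H3 carries Flag and biotin-acceptor tags. The cells grew with LIF, a MEK inhibitor (PD0325901, 1 µM) and a GSK3 inhibitor (CHIR99021, 3 µM), were arrested at the start of S phase with thymidine and were then released. The 4 conditions were 3 h of release without triptolide, 3 h with 1 µM triptolide, 6 h without and 6 h with 1 µM triptolide, and each had 1 library. The time at which the drug was added is not given in the sources used here, and the other 23 of the 27 samples, chromatin libraries, are not analysed here.

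Mitochondria keep a small circular genome of their own. A single-subunit polymerase, POLRMT, transcribes it from both strands into long precursors, and most mRNAs and both rRNAs are freed when the tRNAs between them are cut out. The mRNAs encode core subunits of 4 of the complexes of oxidative phosphorylation, and the rRNAs and tRNAs serve the mitochondrial ribosome that translates them. Triptolide acts on XPB, the helicase of the general factor TFIIH, which RNA polymerase II needs to start transcription and POLRMT does not use. Most mitochondrial mRNAs end in short poly(A) tails, with ND6 known in human cells as an exception, and the libraries were made from RNA bound to poly(A) beads, so the values describe the RNA that these beads retained.

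No table used here pairs the transcript identifiers with genes (0 of 137271 occurred in the gene tables), so members were named by length. The lengths of the 37 members were the same set of values as the lengths of the 37 genes on chromosome MT in RefSeq (GRCm38.p6). All 13 mRNAs and both rRNAs had a length that no other mitochondrial gene shared, and so did 5 of the 22 tRNAs. The transcript ENSMUST00000082402.1, of 1545 nt, thus matched COX1 (mt-Co1) at positions 5328 to 6872 of chromosome MT. The rRNAs mt-Rnr1 (955 nt, positions 70 to 1024) and mt-Rnr2 (1582 nt, positions 1094 to 2675) lie at the start of the numbering, and ND6 (mt-Nd6, 519 nt, positions 13552 to 14070) is the mRNA that is read from the other strand, the light strand. The remaining 17 tRNAs share their lengths with each other and are given by identifier. Nuclear genes of mitochondrial transcription or respiration, and markers of the labelled cell type, could not be looked up for the same reason.

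Library totals ran from 19145129 reads (6 h, triptolide) to 27443889 reads (3 h, untreated), and read numbers were expressed per 1000000 reads of each library (CPM). Ratios were computed for the 32199 transcripts whose CPM averaged at least 1 over the 4 libraries, called the tested transcripts, and 26 of the 37 members were among them. These were the 13 mRNAs, the 2 rRNAs and 11 tRNAs. The other 11 tRNAs had at most 15 reads (0.602 CPM) in any library, where 0 reads leave room for up to 3, or 0.109 to 0.157 CPM. Each condition has a single library, so the differences could not be checked against replicates and carry no p-values. Intervals in brackets are 95% intervals for counting error only. They cover neither the spread between libraries of 1 condition nor the estimated split of shared reads. PCR copies of 1 molecule were not marked, so the intervals can be too narrow. Values are relative to the rest of the library, so more mitochondrial RNA and less of the other RNA cannot be told apart, nor can a change in the mix of cells and a change in RNA per cell.

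At both times the mitochondrial transcripts were higher in the library with triptolide. They took 2.93% of all reads at 3 h untreated (exact Clopper-Pearson interval 2.92% to 2.93%) and 3.65% at 3 h with triptolide (3.65% to 3.66%). At 6 h they took 2.45% untreated (2.44% to 2.45%) and 4.58% with triptolide (4.57% to 4.59%). Both treated libraries were above both untreated ones. The share was 1.25-fold higher with the drug at 3 h, a log2 ratio of 0.32 (0.32 to 0.32), and 1.87-fold higher at 6 h, a log2 ratio of 0.90 (0.90 to 0.91).

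The untreated libraries also differed from each other. Without the drug the share at 6 h was 0.84-fold that at 3 h, a log2 ratio of -0.26 (-0.26 to -0.25). The 3 h difference with the drug, 0.32, was therefore close in size to the difference between the 2 untreated libraries, whereas the 6 h difference, 0.90, was larger. With triptolide the share was higher at 6 h than at 3 h, with a log2 ratio of 0.33 (0.32 to 0.33), and the triptolide ratio at 6 h exceeded that at 3 h by 0.58 (0.58 to 0.59, normal interval from the 4 counts). The mean fragment length implied by the listed effective lengths moved with the drug as well, at 83.8 nt and 84.8 nt in the untreated libraries and 85.9 nt and 88.7 nt in the treated ones at 3 h and 6 h, and its part in the result was not tested.

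**Figure D1:**
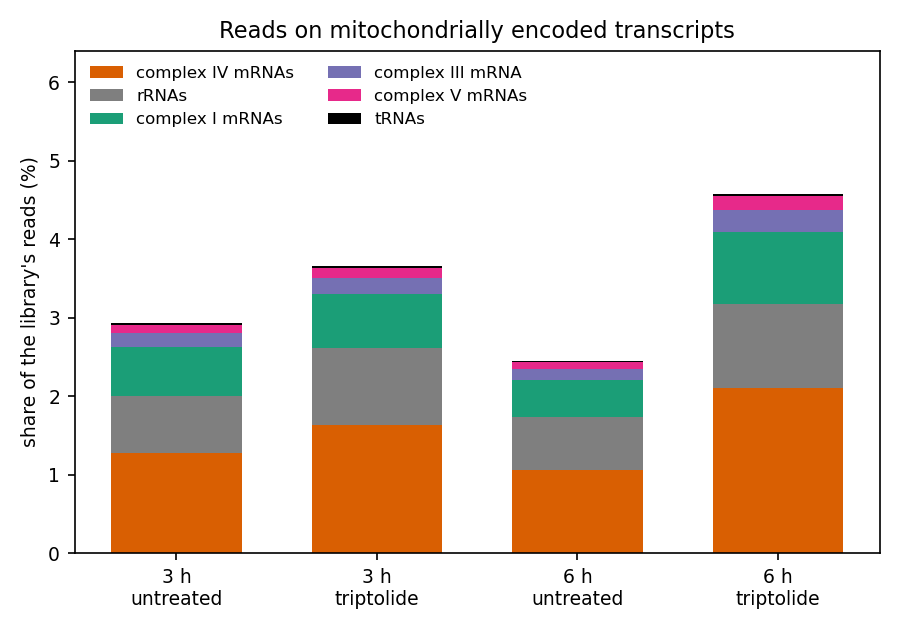
Share of each library's reads (%) on mitochondrially encoded transcripts, as stacked bars from 0 with 1 colour per class, for the 4 libraries. The bars reach 2.93% and 3.65% at 3 h without and with triptolide, and 2.45% and 4.58% at 6 h, with complex IV mRNAs and rRNAs as the largest parts of each.

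Set against all transcripts, the mitochondrial sum lay above the middle of the distribution in both drug comparisons. The median log2 ratio of the 32199 tested transcripts was -0.04 at 3 h and -0.23 at 6 h, so the mitochondrial sum stood 0.36 above it at 3 h and 1.13 above it at 6 h. Scaling with TMM factors moved every 6 h ratio by 0.22 and DESeq2 size factors by 0.23. Such factors shift all ratios of a comparison alike, so by construction they cannot change that distance. In deposited TPM the distances were 0.31 at 3 h and 1.13 at 6 h. Most members of 200 nt or more are short, abundant transcripts, so they were also set beside others of that kind. The 721 other transcripts of 200 to 2000 nt with a mean of 100 CPM or more had a median of 0.09 at 3 h and 0.24 at 6 h. Of the 721, 42 at 3 h and 22 at 6 h had a ratio at or above that of the mitochondrial sum. The 22 include ENSMUST00000188231.1 (1.12 at 6 h), a transcript of the length of mt-Atp6 that is described below.

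By the rule of at least 2-fold, 0 of the 26 tested members were higher with triptolide at 3 h, where 5.38% of all tested transcripts were, and 0 were lower, where 7.96% were. At 6 h 9 of the 26 were at least 2-fold higher, against 10.7% of all tested transcripts, and 0 were lower, against 24.7%. These 9 were mt-Nd4, mt-Nd5, mt-Nd6, mt-Cytb, mt-Co1, mt-Atp8 and the tRNAs ENSMUST00000082398.1, ENSMUST00000082403.1 and ENSMUST00000082420.1. Many members lay close to the limit. At 1.5-fold 23 of the 26 were higher at 6 h, all 15 mRNAs and rRNAs and 8 tRNAs, against 19.3% of all tested transcripts, and 0 were lower, against 36.9%. At 3 h 0 of the 26 passed 1.5-fold in either direction, against 12.7% of all tested transcripts upward and 18.1% downward. The count at 2-fold was 14 with TMM factors, against 14.2% of all tested transcripts under the same scaling. It was 15 with size factors, against 14.5%, and 1 in deposited TPM, against 6.69%. The median log2 ratio of the 26 was 0.21 at 3 h, with members from -0.43 to 0.47, and 0.88 at 6 h, with members from -0.20 to 1.46.

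Among the 15 members of 200 nt or more, the rRNAs had the 2 smallest log2 ratios with triptolide at 6 h, while at 3 h mt-Rnr2 had the largest. The 16S rRNA of the large ribosomal subunit, mt-Rnr2, had 5017 CPM untreated and 6936 CPM with triptolide at 3 h, and 4703 and 7428 CPM at 6 h. The 12S rRNA of the small subunit, mt-Rnr1, had 2251 and 2865 CPM at 3 h and 2068 and 3233 CPM at 6 h. For both, each treated library was above each untreated one, and the untreated libraries lay closer together than for any mRNA except mt-Co3. The log2 ratio with triptolide was 0.47 (0.46 to 0.48) at 3 h and 0.66 (0.65 to 0.67) at 6 h for mt-Rnr2, and 0.35 (0.33 to 0.36) and 0.64 (0.63 to 0.66) for mt-Rnr1.

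Among the mRNAs, mt-Co1 was by far the most abundant. It encodes the catalytic subunit of complex IV, cytochrome c oxidase, and was the transcript with the 3rd most reads in every library. It had 11264 CPM untreated and 14423 CPM with triptolide at 3 h, and 9192 and 18420 CPM at 6 h, so both treated values exceeded both untreated ones. Its log2 ratio was 0.36 (0.35 to 0.36) at 3 h and 1.00 (1.00 to 1.01) at 6 h. It alone gave 37.5% to 40.2% of all mitochondrial reads, yet without it the summed log2 ratio was still 0.30 at 3 h and 0.84 at 6 h.

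The other 2 complex IV mRNAs differed from mt-Co1 in their time course. mt-Co3 had 1249 and 1556 CPM at 3 h and 1242 and 2420 CPM at 6 h, untreated and treated, and its untreated libraries were nearly level, with a log2 ratio of -0.01 (-0.03 to 0.01) from 3 h to 6 h. mt-Co2 had 258 and 301 CPM at 3 h and 153 and 257 CPM at 6 h. It was the mRNA with the lowest untreated time ratio, -0.75 (-0.81 to -0.70), and its treated 6 h library did not exceed its untreated 3 h library. Its log2 ratio with triptolide was 0.23 (0.18 to 0.27) at 3 h and 0.75 (0.69 to 0.81) at 6 h, the lowest of the 13 mRNAs at 6 h.

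Complex I, the NADH dehydrogenase that feeds electrons into the chain, takes 7 of the 13 mRNAs. Their sum was 6181 and 6899 CPM at 3 h, and 4715 and 9107 CPM at 6 h, untreated and treated. The log2 ratio was 0.16 (0.15 to 0.17) at 3 h, the smallest of the 4 complexes, and 0.95 (0.94 to 0.96) at 6 h. mt-Nd1, the most abundant of them, had 2162 and 2565 CPM at 3 h and 1698 and 2995 CPM at 6 h. mt-Nd4 had 1323 and 1478 CPM at 3 h and 1029 and 2147 CPM at 6 h, a log2 ratio of 0.16 (0.14 to 0.18) and 1.06 (1.04 to 1.08). In both genes each treated library was above each untreated one. mt-Nd2, mt-Nd4l and mt-Nd5 had log2 ratios of 0.08 to 0.12 at 3 h and of 0.94 to 1.01 at 6 h.

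Of the complex I mRNAs, mt-Nd3 was lower with triptolide at 3 h and higher at 6 h. For mt-Nd6 the libraries were nearly level at 3 h, and the treated one was higher at 6 h. mt-Nd3, the mRNA with the fewest reads, had 74.8 and 65.8 CPM at 3 h and 94.8 and 162 CPM at 6 h, untreated and treated. Its log2 ratio was -0.19 (-0.28 to -0.09) at 3 h and 0.78 (0.70 to 0.85) at 6 h, and it was the 1 member of 200 nt or more that was higher at 6 h than at 3 h without the drug, by 0.34 (0.26 to 0.43). mt-Nd6, the light strand mRNA, had 371 and 359 CPM at 3 h and 257 and 587 CPM at 6 h. At 3 h the treated and untreated values of mt-Nd6 were nearly equal, with a log2 ratio of -0.05 (-0.09 to -0.01) that came to -0.0032 with TMM factors and -0.0024 with size factors, and at 6 h its ratio of 1.19 (1.15 to 1.24) was the highest of the 15 members of 200 nt or more. The 12 heavy strand mRNAs summed had 0.29 (0.28 to 0.29) at 3 h and 0.98 (0.98 to 0.99) at 6 h. Whether the counting used strand is not given, so reads counted for mt-Nd6 can come from either strand. The values are therefore not a comparison of the strands.

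Complex III and complex V contribute 1 and 2 mRNAs. mt-Cytb, the cytochrome b of complex III, had 1781 and 2041 CPM at 3 h and 1441 and 2910 CPM at 6 h, with log2 ratios of 0.20 (0.18 to 0.21) and 1.01 (1.00 to 1.03). The ATP synthase mRNAs mt-Atp8 and mt-Atp6 overlap by 43 nt in RefSeq, so that reads in the overlap can be assigned to either. mt-Atp8 had 492 and 583 CPM at 3 h and 390 and 847 CPM at 6 h, and mt-Atp6 had 623 and 748 CPM at 3 h and 462 and 916 CPM at 6 h. In all 3 genes each treated library exceeded each untreated one. Their 6 h log2 ratios were 1.12 (1.08 to 1.16) for mt-Atp8 and 0.99 (0.95 to 1.02) for mt-Atp6.

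**Figure D2:**
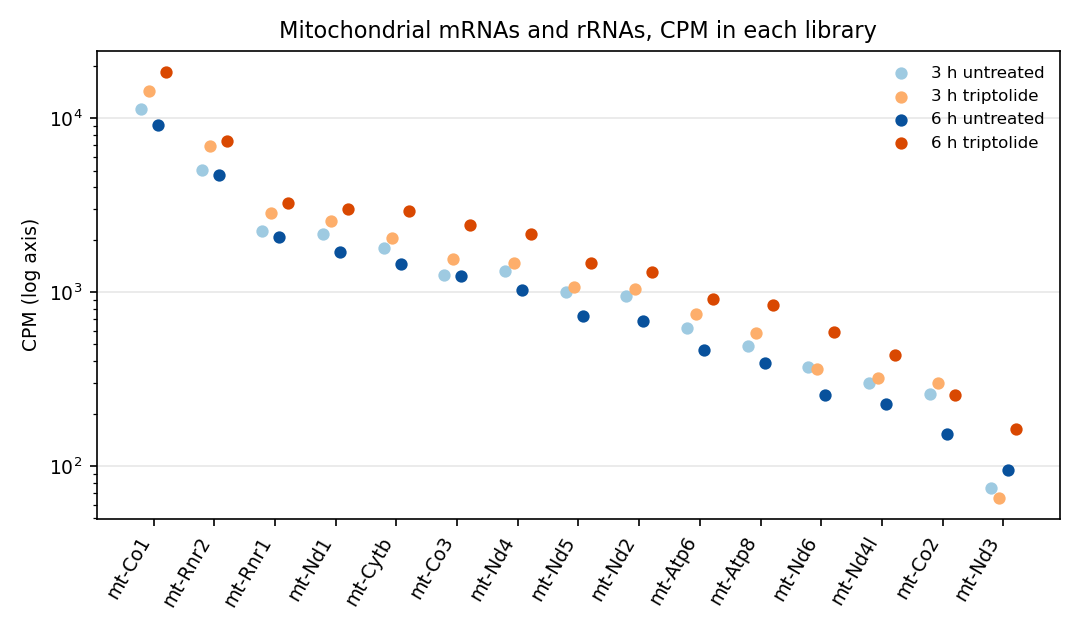
CPM (log axis) of the 13 mitochondrial mRNAs and 2 rRNAs in the 4 libraries, 1 point per library, ordered by mean CPM. The 6 h triptolide point is the highest for every transcript except mt-Co2, and the untreated 6 h point is the lowest except for mt-Nd3.

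In the order of the genes along chromosome MT, the 6 h log2 ratios with triptolide were 0.64 for mt-Rnr1, 0.66 for mt-Rnr2, 0.82 for mt-Nd1, 0.94 for mt-Nd2 and 1.00 for mt-Co1. Beyond mt-Co1 the ratios of the heavy strand mRNAs did not follow the position further, and ran from 0.75 for mt-Co2 to 1.12 for mt-Atp8. The last of them in that order, mt-Cytb at positions 14145 to 15288, had 1.01. At 3 h the order differed, with 0.35 and 0.47 for the rRNAs, 0.25 for mt-Nd1, 0.12 for mt-Nd2 and 0.36 for mt-Co1.

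**Figure D3:**
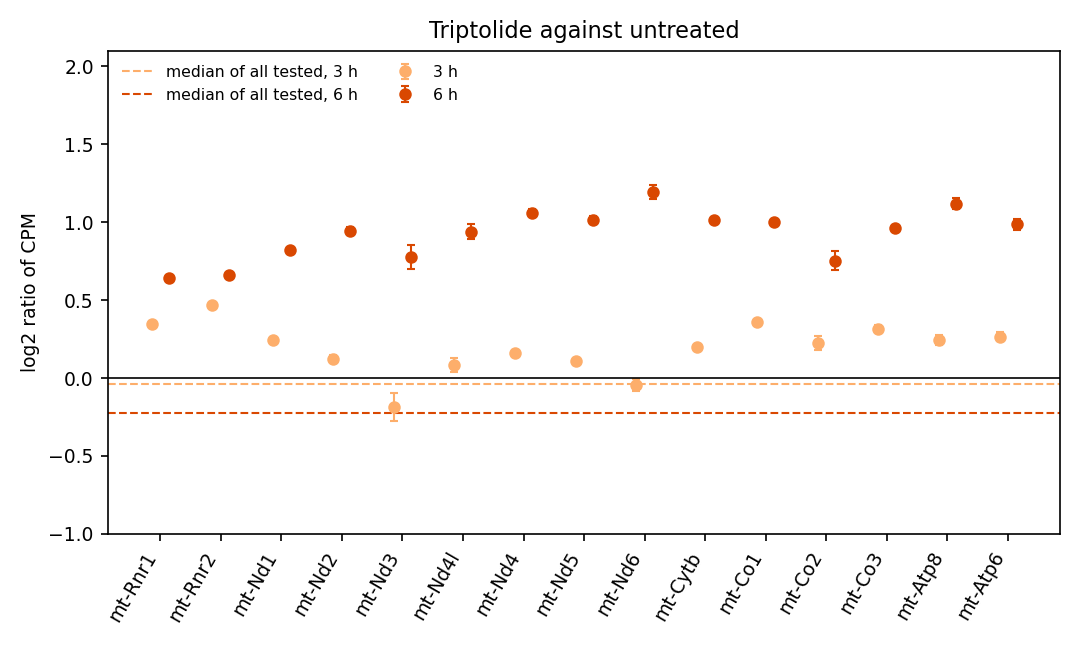
Log2 ratio of CPM, triptolide against untreated, at 3 h and 6 h for the mRNAs and rRNAs, with bars for the 95% counting intervals and dashed lines for the median of all 32199 tested transcripts. All 15 members are above both 0 and the median at 6 h, while at 3 h mt-Nd3 and mt-Nd6 are below 0.

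The balance between rRNAs and mRNAs moved in opposite directions at the 2 times. This balance is a ratio within the mitochondrial reads, which no scaling of whole libraries changes. The rRNAs made up 24.8% of the mitochondrial reads untreated (24.7% to 24.9%) and 26.8% with triptolide (26.7% to 26.9%) at 3 h. At 6 h they made up 27.7% untreated (27.5% to 27.8%) and 23.3% with triptolide (23.2% to 23.4%). The treated libraries thus do not lie on 1 side of the untreated ones. As a log2 change of rRNA over mRNA, the drug comparison gave 0.15 (0.14 to 0.16) at 3 h and -0.33 (-0.34 to -0.32) at 6 h, and the 2 untreated libraries differed by 0.21 (0.20 to 0.22), a size between those of the drug comparisons. Complex IV mRNAs made up 43.2% to 46.1% of the mitochondrial reads and complex I mRNAs 18.9% to 21.1%.

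**Figure D4:**
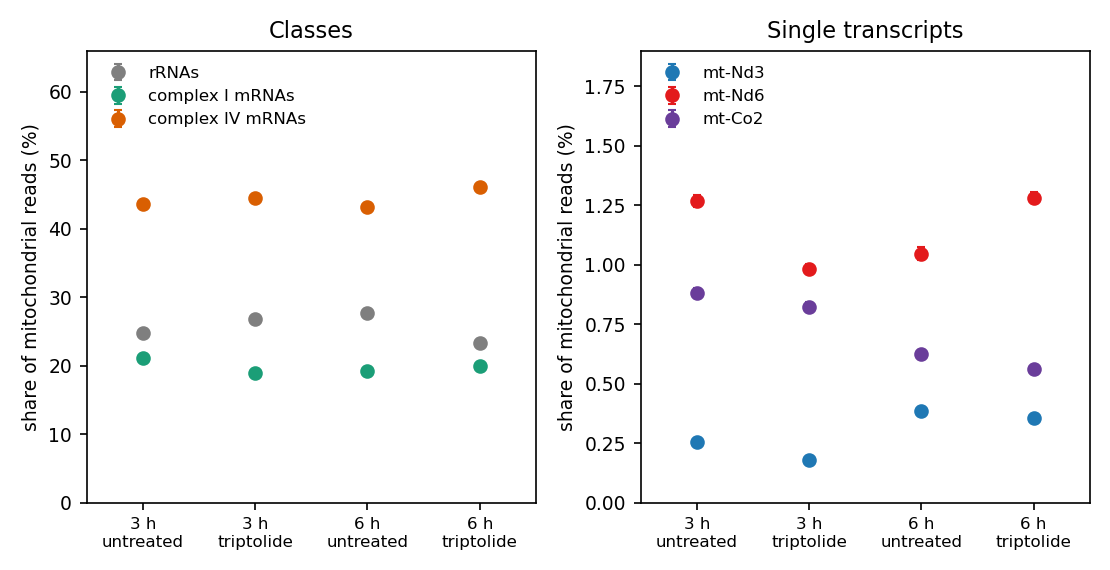
Share (%) of the mitochondrial reads taken by rRNAs, complex I and complex IV mRNAs (left) and by mt-Nd3, mt-Nd6 and mt-Co2 (right) in the 4 libraries, with 95% counting intervals that are mostly smaller than the points. The rRNA share is lowest in the 6 h triptolide library (23.3%) and highest in the 6 h untreated one (27.7%), and mt-Nd3 takes a larger share in both 6 h libraries than in both 3 h libraries.

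From 3 h to 6 h the mitochondrial transcripts were lower without the drug and higher with it. The 13 mRNAs summed had 21847 CPM at 3 h and 17595 CPM at 6 h untreated, a log2 ratio of -0.31 (-0.32 to -0.31), and 26552 and 34878 CPM with triptolide, a log2 ratio of 0.39 (0.39 to 0.40). The rRNAs differed less over time, by -0.10 (-0.11 to -0.09) untreated and 0.12 (0.11 to 0.13) with the drug, and in deposited TPM the latter direction flipped for mt-Rnr1 (-0.0087) and mt-Rnr2 (-0.09). Without triptolide 1 of the 26 tested members was at least 2-fold lower at 6 h, against 3.85% of all tested transcripts, and 0 were higher, against 4.32%. That 1 was the tRNA ENSMUST00000082398.1, which had 11.2 and 5.38 CPM. At 1.5-fold 2 were lower, against 10.9% of all tested transcripts, the other being mt-Co2, and 0 were higher, against 11.4%. With triptolide 1 member, mt-Nd3, was at least 2-fold higher at 6 h (log2 ratio 1.30, 1.22 to 1.39), against 7.73% of all tested transcripts, and 0 were lower, against 17.1%. At 1.5-fold 4 were higher, against 14.4%, namely mt-Nd3, mt-Nd6, mt-Co3 and ENSMUST00000082420.1, and 0 were lower, against 30.9%. The drug and time comparisons share libraries, so their ratios are not independent of each other.

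**Figure D5:**
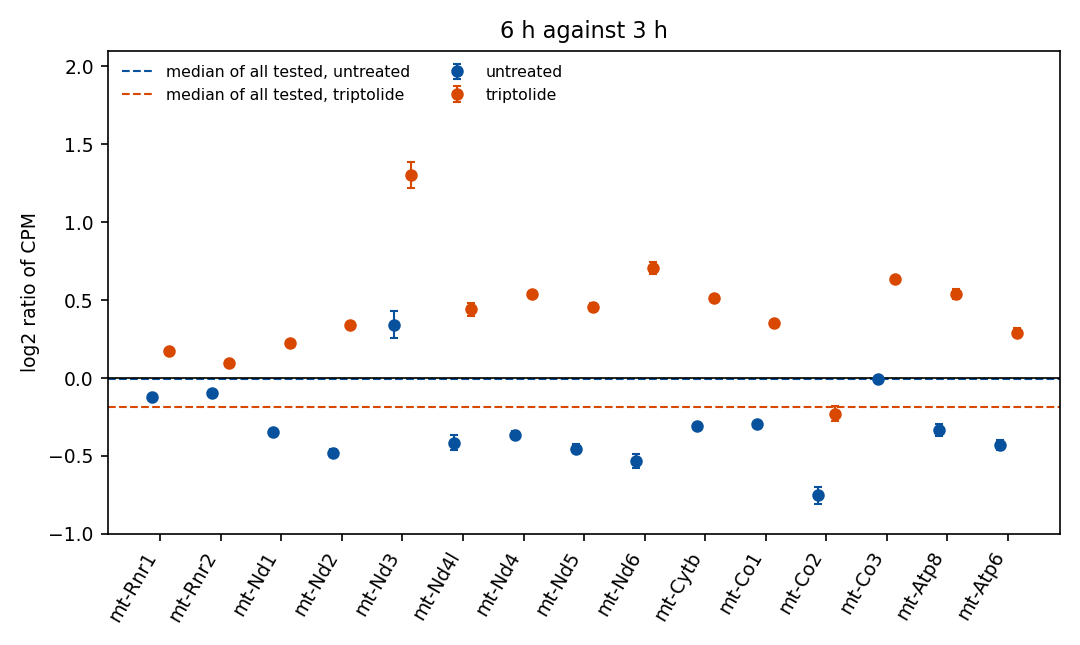
Log2 ratio of CPM, 6 h against 3 h, without and with triptolide for the mRNAs and rRNAs, with 95% counting intervals and dashed lines for the median of all tested transcripts. Untreated ratios are below 0 except for mt-Nd3, treated ratios are above 0 except for mt-Co2 (-0.23), and mt-Co3 lies near 0 untreated.

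The tRNAs, which carry amino acids to the mitochondrial ribosome and are 59 to 75 nt long, gave few reads. All 22 together held 0.476% to 0.514% of the mitochondrial reads, or 150 and 174 CPM at 3 h and 118 and 226 CPM at 6 h, untreated and treated. The summed log2 ratio with triptolide was 0.21 (0.15 to 0.27) at 3 h and 0.94 (0.87 to 1.01) at 6 h. Both strands are transcribed into long precursors, and the strand of the reads is not known. Reads counted for a tRNA can thus come from either strand or from uncut RNA, and are not levels of the free tRNA. The tRNA reads were unevenly spread. The 69 nt tRNA ENSMUST00000082403.1 had 67.3 and 78.6 CPM at 3 h and 54.4 and 118 CPM at 6 h, above every other tRNA in each library, with a log2 ratio of 1.11 (1.01 to 1.21) at 6 h. A second 69 nt tRNA, ENSMUST00000082420.1, had 15.7 and 19.0 CPM at 3 h and 14.4 and 29.0 CPM at 6 h.

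ENSMUST00000082398.1, also of 69 nt, had 11.2 and 13.8 CPM at 3 h and 5.38 and 14.8 CPM at 6 h. Its 6 h log2 ratio of 1.46 (1.16 to 1.77) was the highest of all 26 tested members, and it rested on 134 untreated and 284 treated reads, the untreated 6 h library being low. Of the 5 tRNAs that could be named, the cysteine tRNA mt-Tc had 9.44 and 10.8 CPM at 3 h and 6.86 and 10.4 CPM at 6 h, and the leucine tRNA mt-Tl1 had 4.45 and 5.69 CPM at 3 h and 3.85 and 6.48 CPM at 6 h. The others, for aspartate (mt-Td), lysine (mt-Tk) and serine (mt-Ts2), had at most 11 reads in any library. The gene of mt-Tc is on the light strand, and its position, 5192 to 5257, lies between mt-Nd2 and mt-Co1, both read from the heavy strand. Whether the counting used strand is not given in the sources used here, so reads from the 2 strands cannot be told apart there. The same holds for the other tRNAs and for the whole of mt-Nd6, which also shares 14 nt with mt-Nd5.

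The remaining tRNAs above the abundance limit were 6 in number. ENSMUST00000082394.1 and ENSMUST00000082399.1 (71 nt) and ENSMUST00000082401.1 and ENSMUST00000082423.1 (67 nt) had 4.58 to 12.7 CPM, with 6 h log2 ratios of 0.50 to 0.73. ENSMUST00000082395.1 and ENSMUST00000082397.1 had 1.03 to 2.19 CPM, and the counting intervals of their ratios included 0 in all 4 comparisons. Of the 11 tested tRNAs, 8 had a log2 ratio with triptolide above 0 at 3 h, against 46.9% of all tested transcripts, and 10 at 6 h, against 40.8%. Among the 8, the 3 h counting intervals of ENSMUST00000082394.1, ENSMUST00000082399.1 and mt-Tc included 0. As reads can come from uncut RNA, the 11 are not separate observations.

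Levels of different genes are compared here per length, as TPM. The ranges run over the 4 conditions, not over replicates, so ranges that overlap can still keep 1 order within every library. Among the mRNAs and rRNAs mt-Co1 was highest in every library, with 6939 to 11352 TPM, a range above that of all others. The next were mt-Atp8 with 3448 to 6242 TPM and mt-Rnr2 with 3462 to 4737 TPM, whose ranges overlap. The levels of mt-Rnr1 (2619 to 3367 TPM) were below these ranges. From mt-Rnr1 downward each range overlaps the next, through mt-Nd1 (2145 to 3094 TPM), mt-Co3 (1940 to 3121), mt-Cytb (1499 to 2474) and mt-Nd4l (1167 to 1853). Then mt-Atp6, mt-Nd4, mt-Nd2 and mt-Nd6 followed, between 650 and 1494 TPM. The place of mt-Atp6 is uncertain, since a transcript of the same length outside the set, described below, had more reads. The lowest of the mRNAs were mt-Nd5 (462 to 761 TPM), mt-Nd3 (255 to 559) and mt-Co2 (281 to 514), which also overlap. None of these had whole numbers of reads in all 4 libraries, so reads may be shared with other transcripts. How far this lowers their places was not measured. The genes of mt-Atp8 and mt-Atp6 overlap by 43 nt, and those of mt-Nd4l and mt-Nd4 by 7 nt. Within each pair TPM depends on read assignment and effective length, so a gap within a pair is not read as a difference in mRNA level.

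TPM depends strongly on the effective length where a transcript is close in length to the fragments. mt-Atp8 is 204 nt long and is listed with an effective length of 126 nt at 3 h untreated, and per kilobase of full length it had a mean of 2834 CPM, below the 3806 of mt-Rnr2. The tRNAs took 17.7% to 18.3% of the mitochondrial TPM for their 0.476% to 0.514% of the mitochondrial reads, with effective lengths near 20 nt. The mitochondrial share of all TPM was 4.01% and 4.58% at 3 h and 3.35% and 5.24% at 6 h, untreated and treated, with log2 ratios of 0.19 and 0.65.

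The nuclear genome holds copies of stretches of mitochondrial DNA, and an estimator splits reads that match both. Of the 15 members of 200 nt or more, 2 had whole numbers of reads in all 4 libraries (within 1e-06), and both of these are listed with 6 digits and no decimals; 21 of the 22 tRNAs were whole. RefSeq lists a pseudogene, Gm10925, with the synonym mt-Atp6 and the same length, 681 nt, on chromosome 1 at positions 24613971 to 24614651. Of the 21 tested transcripts outside the set with 681 nt, ENSMUST00000188231.1 alone had more reads than mt-Atp6, at 3354 and 4085 CPM at 3 h and 2605 and 5677 CPM at 6 h. Its log2 ratios with triptolide were 0.28 at 3 h and 1.12 at 6 h, next to 0.27 and 0.99 for mt-Atp6. It was singled out after its values were seen, nothing used here says which gene it belongs to, and equal length alone does not identify a copy, since 2 transcripts of the length of mt-Nd6 also had more reads than mt-Nd6. Adding it to the sum gave log2 ratios of 0.32 at 3 h and 0.93 at 6 h. The level of mt-Atp6 itself is less certain than these sums, since this transcript had a mean of 3930 CPM and mt-Atp6 one of 687 CPM. Levels of other mRNAs with copies in the nuclear genome are uncertain too, to an extent that was not measured.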

How the data were processed

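Estimated counts of reads and TPM per transcript were used as the authors deposited them for the 4 RNA libraries. Per the file headers, the columns are those of Salmon. Its version, transcript set and strand setting were not given in the sources used here. Tools named per the submitters' processing notes were SAMtools 1.0.6, Bowtie 1.0.0 and FastQC 0.11.4, beside the builds mm10 and dm3, without saying which data they served. The deposited TPM divide the estimated counts by effective length, and the deposited lengths and effective lengths (other values, in nt) were used as listed.

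The estimates were rounded to integers and divided by the library total (19145129 to 27443889 reads). A mean CPM of 1 was the minimum for tested transcripts, and 3 reads replaced a zero in ratios. Intervals of shares are exact Clopper-Pearson, those of ratios exact conditional binomial. Groups of 1 library allow no test, so the rule was one of size, 2-fold. Every mitochondrial mRNA and rRNA, and each tRNA with 100 or more reads summed over the libraries, was to be named, from a unique length match to RefSeq where no table paired identifiers with symbols. The alternatives were TMM factors (edgeR 4.0.16), DESeq2 1.42.0 size factors, the total of other transcripts, log2(TPM + 0.1), no filter (10 reads in the 2 libraries), a mean CPM of 5, members of 200 nt or more, a 1.5-fold limit and leaving out the largest member. Adding ENSMUST00000188231.1, and rRNA over mRNA from TPM, were chosen after seeing the data. The ratio procedure was tested on simulated counts. The members and lists were chosen with earlier results of these data known. Lists of nuclear mitochondrial genes and cell type markers were not run, since no identifier could be paired with a gene.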

Additional observations from a re-analysis of the deposited data

Results flagged for a closer look

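Some ratios had opposite directions in 2 settings of the same contrast, with counting intervals off 0 in both. Each setting is 1 pair of libraries, so the differences between settings were not tested over replicates. The triptolide log2 ratio was below 0 at 3 h and above 0 at 6 h for 2 members, mt-Nd3 and mt-Nd6, with differences of 0.96 and 1.24. For mt-Nd6 the 3 h ratio of -0.05 came to -0.0032 with TMM factors, -0.0024 with size factors and -0.13 in TPM. Whether mt-Nd6 was lower with the drug at 3 h thus depends on the scaling. The change of rRNA over mRNA with triptolide went from 0.15 at 3 h to -0.33 at 6 h, a difference of -0.48, and by construction its time change differed by the same -0.48 with the drug against without.

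The 6 h against 3 h log2 ratio was below 0 untreated and above 0 with triptolide for the sum of all members, a difference of 0.58, and for 13 members. The differences were 0.30 for mt-Rnr1 and 0.19 for mt-Rnr2. They were 0.57 for mt-Nd1, 0.82 for mt-Nd2, 0.85 for mt-Nd4l, 0.90 for mt-Nd4, 0.91 for mt-Nd5 and 1.24 for mt-Nd6. They were 0.82 for mt-Cytb, 0.65 for mt-Co1, 0.88 for mt-Atp8, 0.72 for mt-Atp6 and 0.89 for the tRNA ENSMUST00000082403.1. Each is the same quantity as the 6 h minus 3 h difference of the triptolide ratios. No group has enough libraries to look for an outlying sample.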

How the results depend on the processing

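No paired analysis was possible because each condition has 1 library and the groups share 1 replicate number. The summed and median mitochondrial log2 ratios kept their direction under every alternative run; the causes of the shifts below were not tested. With triptolide at 3 h the summed ratio of 0.32 became 0.36 with TMM factors, 0.36 with DESeq2 size factors, 0.33 with the total of other transcripts, 0.19 in TPM and 0.30 without mt-Co1. At 6 h 0.90 became 1.12, 1.13, 0.93, 0.65 and 0.84 in that order, and 0.93 with ENSMUST00000188231.1 added, an alternative chosen after seeing the data. For untreated 6 h against 3 h, -0.26 became -0.25 with TMM, -0.25 with size factors, -0.26 with other transcripts as the total, -0.24 without mt-Co1 and -0.27 with that transcript. For triptolide 6 h against 3 h, 0.33 became 0.51, 0.52, 0.34, 0.20 and 0.31 in the first order and 0.34 with that transcript. The difference of the triptolide ratios, 0.58, became 0.76, 0.77, 0.60 and 0.46 under the first 4 alternatives.

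The median of tested members at 6 h with triptolide, 0.88, became 1.10 under TMM, 1.11 under size factors and 0.59 for TPM. Members at least 2-fold higher there numbered 9 (10.7% of all tested transcripts), with 14 under TMM (14.2%), 15 under size factors (14.5%), 1 for TPM (6.69%) and 23 at 1.5-fold (19.3%). Without a filter 1 member, mt-Tk, was at least 2-fold lower with triptolide at each time, on 9 and 3 reads at 3 h and 11 and 2 at 6 h, against 12.9% and 26.8% of all transcripts so tested. Untreated, the 1 member at least 2-fold lower at 6 h became 0 at 200 nt or more and 2 at 1.5-fold. With triptolide, the 1 member higher at 6 h became 4 at 1.5-fold. The rRNA over mRNA change moved in TPM, also chosen after seeing the data, to 0.16 (3 h) and -0.35 (6 h) with the drug and to -0.31 over time with triptolide, and with ENSMUST00000188231.1 among the mRNAs to -0.35 at 6 h and -0.28 over time with triptolide.

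The mitochondrial share in TPM was 4.01%, 4.58%, 3.35% and 5.24% (3 h untreated, 3 h triptolide, 6 h untreated, 6 h triptolide). At 200 nt or more it was 2.91%, 3.64%, 2.44% and 4.55% of reads, and without mt-Co1 1.80%, 2.21%, 1.53% and 2.73%. Of the single members, mt-Rnr1 and mt-Rnr2 changed direction in TPM for triptolide 6 h against 3 h, to -0.00874 and -0.0856 from 0.17 and 0.10. Among all 26 tested members, ratios changed sign in 2 of 104 recomputed values at 3 h and 2 of 104 at 6 h with triptolide, in 1 of 104 untreated over time and in 12 of 104 with triptolide over time. Counting error is wide for the tRNAs and narrow for the sums. Spread between libraries of 1 condition was not measured.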
